A study of Homo sapiens with 8 samples.

Results

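The transcripts described here are those of 10 genes of the NF-kB system, taken from a count table of 60622 usable gene lines by their symbols. NFKB1, NFKB2, REL, RELA and RELB are the subunit genes, and NFKBIA and NFKBIZ are genes of the IkB family. TNFAIP3, BIRC3 and ICAM1 are feedback and target genes. Each symbol stood on 1 line, and all 10 passed the filter on low counts. Poly(A) RNA was sequenced from 2 human prostate cancer cell lines, PC3, derived from a bone metastasis, and LNCaP, which came from a lymph node metastasis and responds to androgen. In GENCODE v29 (GRCh38, 1-based, with strand) the subunit genes are NFKB1 (chr4:102501329-102617302, plus), NFKB2 (chr10:102394110-102402529, plus), REL (chr2:60881521-60931610, plus), RELA (chr11:65653596-65663094, minus) and RELB (chr19:45001430-45038198, plus). The others are NFKBIA (chr14:35401511-35404749, minus), NFKBIZ (chr3:101827991-101861022, plus), TNFAIP3 (chr6:137867188-137883312, plus), BIRC3 (chr11:102317450-102339403, plus) and ICAM1 (chr19:10270835-10286615, plus). The 4 groups were PC3 with miR-375 overexpressed, PC3 control, LNCaP with miR-375 overexpressed and LNCaP control, each with 2 libraries. PC3 grew in medium with 20% fetal bovine serum and LNCaP in the same medium with 10%, so that line and serum share cannot be told apart. The means and duration of the overexpression, and the treatment of the controls, are not described in the labels or design text.

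NF-kB is a family of transcription factors that bind DNA as dimers. The precursors encoded by NFKB1 and NFKB2 are processed to p50 and p52, which pair with the activating subunits RelA, RelB and c-Rel. In resting cells IkB proteins, IkBα above all, hold the dimers in the cytoplasm. Kinases of the IKK complex mark IkBα for destruction, and the freed dimers switch on genes that include those of their own inhibitors, so that NFKBIA and TNFAIP3 are both targets and brakes of the pathway. In prostate cancer lines that lack androgen receptor signalling, PC3 among them, NF-kB activity is known to be high.

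Library totals ran from 33973861 to 41890528 counts. The MIR375 gene line held 0 counts in all 8 libraries; since selection for poly(A) leaves out mature microRNAs, this line is no check of the labels or of the overexpression. The summed level of 8 listed LNCaP markers was 4426 to 4541 CPM in LNCaP with miR-375 and 5820 to 5843 CPM in LNCaP control, while it was 107 to 109 CPM in PC3 with miR-375 and 91.1 to 98.3 CPM in PC3 control. The 8 listed PC3 markers summed to 1688 to 1705 CPM in PC3 with miR-375 and 3133 to 3139 CPM in PC3 control, so the sum was lower with miR-375. In LNCaP they summed to 45.8 to 50.5 CPM with miR-375 and 37.8 to 44.4 CPM in control. The 7 leukocyte markers summed to at most 2.02 CPM in any library, and PTPRC, the gene of the pan-leukocyte antigen CD45, stood at no more than 0.230 CPM in any group mean. The sums of 7 fibroblast and 6 endothelial markers were higher in PC3 (392 to 413 and 206 CPM with miR-375, 168 to 181 and 368 to 369 CPM in control), where COL1A1, a collagen gene, and KDR, a VEGF receptor gene, made up most of them. The fibroblast sum was higher and the endothelial sum lower with miR-375 in PC3. The part of these shifts, and of that in the PC3 markers, in the results below was not tested.

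Levels are CPM, counts scaled to library size with TMM factors. Changes are log2 ratios, miR-375 over control, ± SE. The words rose and fell are used where the adjusted p from edgeR's quasi-likelihood test was under 0.05 over 21066 tested genes. No label states that a group's 2 libraries came from separate cultures, and p-values therefore reflect library-to-library spread that may be technical. In bulk RNA, fewer cells with a transcript and less transcript per cell cannot be told apart.

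In PC3, miR-375 was accompanied by higher levels of 5 of the 10 transcripts and lower levels of none. NFKBIA and ICAM1 changed most, at 1.63-fold and 1.57-fold, followed by TNFAIP3 at 1.31-fold, NFKBIZ at 1.15-fold and NFKB2 at 1.10-fold. Over all tested genes 43.0% changed in PC3, with 22.2% higher and 20.8% lower. At an unadjusted p under 0.05, and by limma-voom and DESeq2, 0 of the 10 were lower in PC3. The median log2 fold change of the 10 genes was 0.23, beside 0.02 over all genes tested. In LNCaP, 4 rose (NFKBIA, TNFAIP3, RELB and NFKB2) and 1 (RELA) fell, where 32.6% of all tested genes changed, 13.9% higher and 18.7% lower. The LNCaP median was 0.10, beside a median of 0.00 over all genes.

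**Figure D1:**
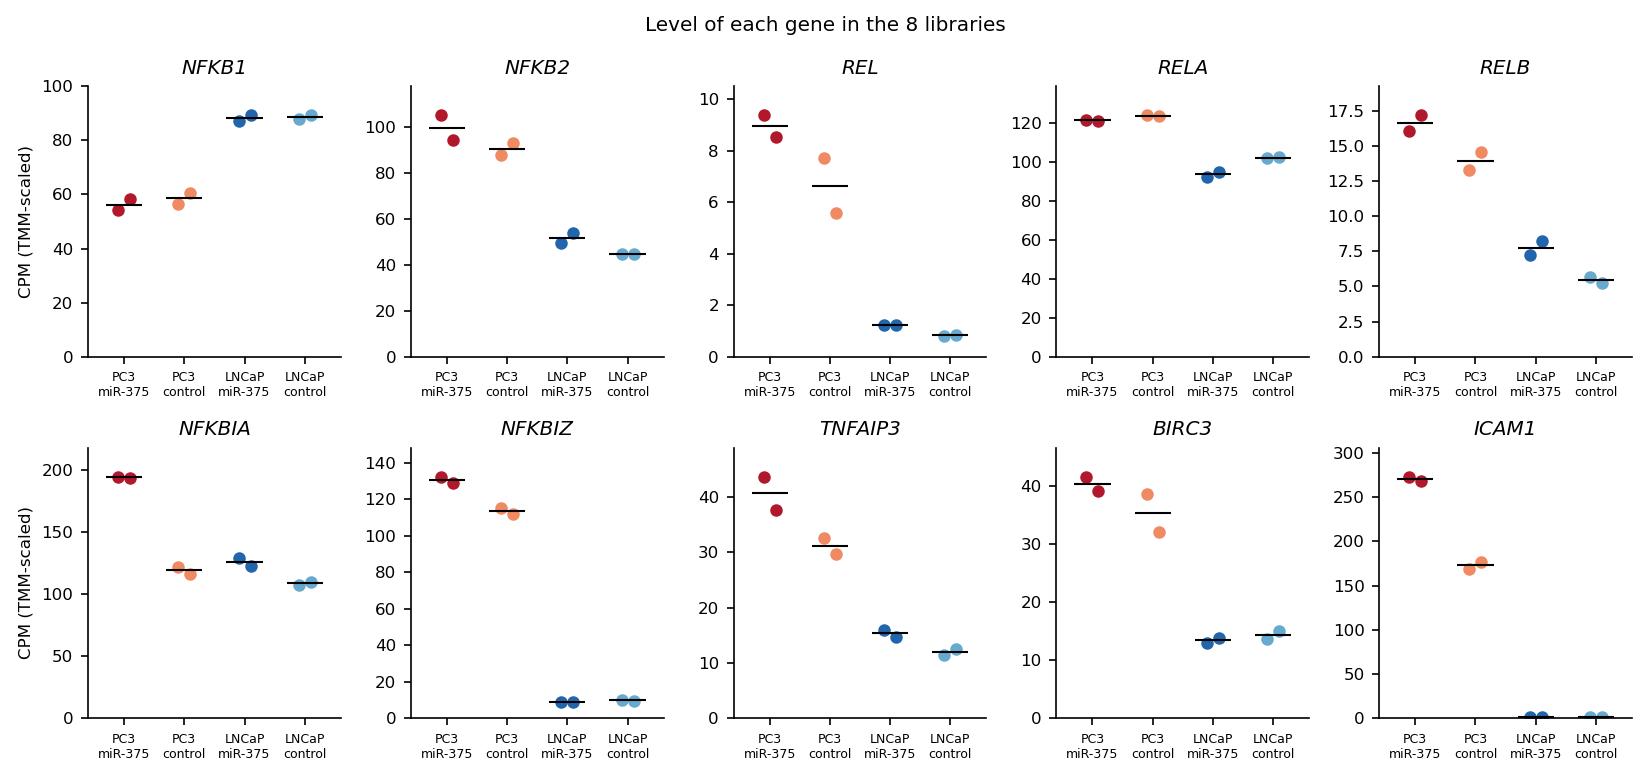
Each panel gives the level of 1 gene in CPM (TMM-scaled, linear axis from 0) in the 8 libraries, by group, with points for libraries and a line for the mean of 2. NFKBIA and ICAM1 stand apart in PC3 with miR-375, at 193 to 195 and 269 to 273 CPM, and ICAM1 and NFKBIZ are low in both LNCaP groups.

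RELA encodes the main activating subunit, p65. It stood at 122 and 121 CPM in PC3 with miR-375, against 124 and 123 CPM in PC3 control. It stood at 92.2 and 94.8 CPM in LNCaP with miR-375, against 102 and 102 CPM in LNCaP control. The groups did not overlap in either line, but the differences were small. In PC3 the change was −0.03 ± 0.04 (95% interval −0.11 to 0.06) and did not pass. In LNCaP RELA fell by 0.12 ± 0.05 (adjusted p = 0.0299), a call that ended when any of the 8 libraries was left out (adjusted p from 0.0502 to 0.531). With scaling by total counts and not by TMM, the median of all genes in LNCaP moved to 0.12, so that LNCaP changes of that size have no settled direction; the RELA value was then −0.0025.

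NFKB1, which encodes the p105 precursor of p50, stood at 54.1 and 58.3 CPM in PC3 with miR-375, against 56.6 and 60.4 CPM in PC3 control. It stood at 87.3 and 89.2 CPM in LNCaP with miR-375, against 87.8 and 89.3 CPM in LNCaP control. The groups overlapped in both lines, and the 95% intervals of the change ran from −0.17 to 0.05 in PC3 and from −0.11 to 0.10 in LNCaP.

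NFKB2 and RELB encode the p100 precursor of p52 and the RelB subunit, the pair of the non-canonical pathway. NFKB2 stood at 105 and 94.2 CPM in PC3 with miR-375, against 87.8 and 92.8 CPM in PC3 control, and at 49.5 and 53.7 CPM in LNCaP with miR-375, against 44.8 and 44.7 CPM in LNCaP control. RELB stood at 16.1 and 17.2 CPM in PC3 with miR-375, against 13.3 and 14.6 CPM in PC3 control, and at 7.21 and 8.22 CPM in LNCaP with miR-375, against 5.65 and 5.24 CPM in LNCaP control. Every library with miR-375 was above both of its controls for both genes. RELB rose 1.42-fold in LNCaP (0.50 ± 0.14, adjusted p = 0.00568), and its PC3 value of 0.26 ± 0.12 did not pass (0.0839). NFKB2 rose 1.15-fold in LNCaP (0.21 ± 0.06, adjusted p = 0.00858) and 1.10-fold in PC3 (0.14 ± 0.06, 0.0375). The LNCaP calls of NFKB2 (adjusted p = 0.0504) and RELB (0.0535) both ended when the second library of LNCaP with miR-375 was left out. The PC3 call of NFKB2 ended under 10 of 17 alternatives, among them the removal of the first PC3 miR-375 library (0.524), the first PC3 control (0.265) or any LNCaP library (0.0755 to 0.0966).

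REL, which encodes c-Rel, was the lowest of the 10 transcripts per kilobase of exon in all 4 groups. It stood at 9.38 and 8.52 CPM in PC3 with miR-375, against 7.71 and 5.58 CPM in PC3 control. In LNCaP it stood at 1.22 and 1.25 CPM with miR-375, against 0.816 and 0.859 CPM in control. The miR-375 libraries were above the controls in both lines, but neither change passed (0.43 ± 0.18, adjusted p = 0.0591, in PC3; 0.55 ± 0.31, 0.180, in LNCaP). Without the first PC3 control, the higher of the pair, the PC3 value was 0.68 with adjusted p = 0.0184. In GENCODE v29, 5702 of the 13170 exonic bases of REL are shared with a non-coding gene on the same strand, and how reads there were counted is not stated in the labels, so the REL level may be understated.

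Per kilobase of annotated exon, RELA and NFKB2 were the leading subunit transcripts in PC3 and RELA and NFKB1 in LNCaP. The divisor is the union of all annotated exons of a gene, not the length of the expressed message. Orders and shares between genes, here and below, depend on that choice. NFKB2 stood at 22.2 ± 1.71 CPM per kb in PC3 with miR-375 and 20.1 ± 0.792 in PC3 control (SD, n = 2 each), and RELA at 22.2 ± 0.0760 with miR-375 and 22.6 ± 0.0914 in control. In LNCaP, NFKB1 stood at 14.1 ± 0.220 CPM per kb with miR-375 and 14.2 ± 0.178 in control, and RELA at 17.1 ± 0.337 with miR-375 and 18.7 ± 0.0575 in control. The leading pair thus differed between the lines and was the same with and without miR-375. Of the summed level of the 5 subunit transcripts per kb, NFKB2 held 35.7% to 38.8% in PC3 with miR-375 and 34.8% to 35.6% in PC3 control. NFKB1 held 14.3% to 15.8% in PC3 with miR-375 and 16.1% to 16.6% in PC3 control. In LNCaP, NFKB2 held 24.9% to 25.8% with miR-375 and 22.3% to 22.4% in control, and NFKB1 held 30.7% to 31.5% with miR-375 and 31.5% to 31.9% in control. REL was under 1.19% in every library.

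**Figure D2:**
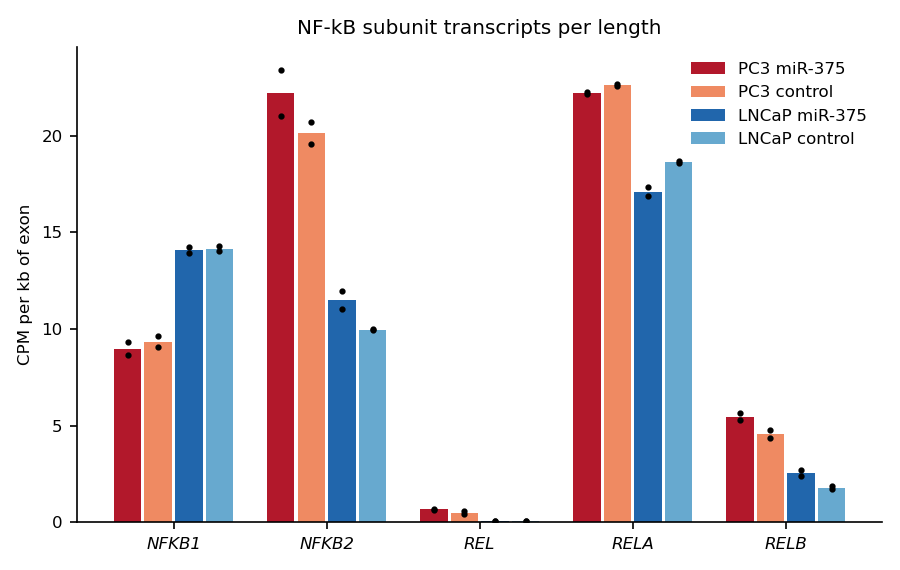
Bars give the mean level of each subunit transcript in CPM per kb of annotated exon, with a point for each of the 2 libraries per group. NFKB2 is near RELA in PC3 (20.1 and 22.6 in control) and below NFKB1 in LNCaP (9.98 and 14.2 in control).

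NFKBIA encodes IkBα, the inhibitor that binds NF-kB dimers and carries them back out of the nucleus. It stood at 195 and 193 CPM in PC3 with miR-375, against 122 and 116 CPM in PC3 control. It stood at 129 and 122 CPM in LNCaP with miR-375, against 107 and 110 CPM in LNCaP control. The miR-375 libraries lay above the controls in both lines, and the wider gap was in PC3. NFKBIA rose by 0.70 ± 0.04 in PC3 (adjusted p = 1.30e-16) and by 0.21 ± 0.04 in LNCaP (0.000169). Both calls held under all 17 alternatives, with values from 0.66 to 0.78 in PC3 and from 0.21 to 0.33 in LNCaP. The ratio of NFKBIA to RELA counts within a library, which no library scaling can move, was 1.60 in both PC3 miR-375 libraries, against 0.981 and 0.945 in the PC3 controls. In LNCaP it was 1.40 and 1.29 with miR-375, against 1.05 and 1.08 in the controls. The ratio reflects both genes and not NFKBIA alone. In LNCaP the change of RELA, the divisor, was −0.12 with TMM scaling and −0.0025 with total counts.

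The promoters of the NF-kB-induced genes carry short sites for the factor itself, and the RefSeq promoter windows (GRCh38.p14, 250 bases before to 50 after the start) of the 4 genes with the largest rises in PC3 are printed to show them. Capitals mark bases in a match to the kappaB consensus or to the shorter core GGAANNNCC, searched on both strands; most kappaB matches contain a core match. The windows lie at chr14:35404700-35404999 (minus strand) for NFKBIA, chr19:10270870-10271169 (plus) for ICAM1, chr6:137867009-137867308 (plus) for TNFAIP3 and chr3:101827740-101828039 (plus) for NFKBIZ.
NFKBIA: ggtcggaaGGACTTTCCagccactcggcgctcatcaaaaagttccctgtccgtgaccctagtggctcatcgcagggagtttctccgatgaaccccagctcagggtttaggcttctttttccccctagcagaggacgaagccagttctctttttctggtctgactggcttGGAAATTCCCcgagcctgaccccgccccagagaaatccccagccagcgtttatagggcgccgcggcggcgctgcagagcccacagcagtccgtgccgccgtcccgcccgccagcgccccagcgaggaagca
ICAM1: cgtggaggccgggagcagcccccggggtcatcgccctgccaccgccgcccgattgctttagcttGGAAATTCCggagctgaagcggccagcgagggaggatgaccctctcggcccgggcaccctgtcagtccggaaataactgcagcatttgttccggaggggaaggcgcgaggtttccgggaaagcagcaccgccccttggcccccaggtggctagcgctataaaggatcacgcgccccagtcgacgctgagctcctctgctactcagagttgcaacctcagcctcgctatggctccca
TNFAIP3: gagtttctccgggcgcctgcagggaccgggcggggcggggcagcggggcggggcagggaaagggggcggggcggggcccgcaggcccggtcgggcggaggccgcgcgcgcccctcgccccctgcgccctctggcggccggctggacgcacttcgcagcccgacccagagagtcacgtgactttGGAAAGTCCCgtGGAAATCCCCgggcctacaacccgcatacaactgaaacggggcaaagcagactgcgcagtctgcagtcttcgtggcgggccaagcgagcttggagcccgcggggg
NFKBIZ: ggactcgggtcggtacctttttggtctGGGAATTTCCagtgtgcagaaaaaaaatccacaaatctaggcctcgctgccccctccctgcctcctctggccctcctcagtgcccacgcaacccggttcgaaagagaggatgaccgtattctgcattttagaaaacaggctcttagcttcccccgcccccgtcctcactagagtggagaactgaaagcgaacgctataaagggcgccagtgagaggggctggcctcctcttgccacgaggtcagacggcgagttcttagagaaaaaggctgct

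Counted in bases from the start, a kappaB match stood at −81 in NFKBIA and at −223 in NFKBIZ, and TNFAIP3 held 2, at −67 and −55. ICAM1 held the core alone, at −186. RefSeq windows were matched for 9 of the 10 genes (not RELB), with only the first listed start of each gene searched. Of these, 6 held a kappaB match, against 10.8% of 27305 promoters of the same length, and 7 held the core, against 20.1%. The windows of NFKB1, REL and BIRC3, whose transcripts did not pass in either line, also held a kappaB match. Those of RELA and NFKB2 held neither motif, though other starts of these genes were not searched. The RELA window (chr11:65663808-65664107, minus strand) lies wholly before the GENCODE start of RELA at 65663094. A match is a description of letters and does not show binding. The 10 genes were chosen as NF-kB subunits, IkB genes and targets, and several are known NF-kB targets. Shares above those of all promoters are therefore no independent result. The core was added to the search later.

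**Figure D3:**
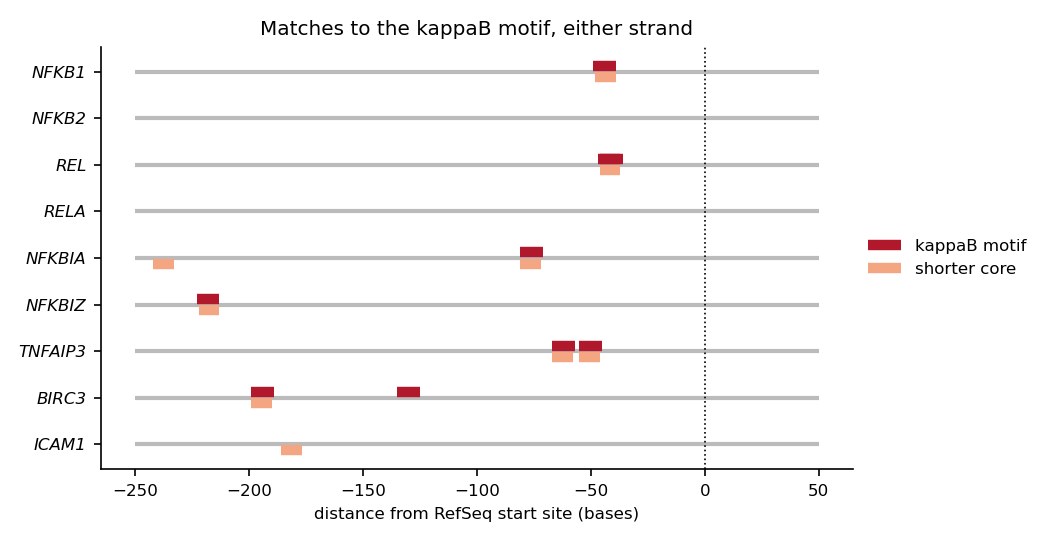
Grey bars are the promoter windows of 9 genes, from 250 bases before to 50 after the RefSeq start (horizontal axis, bases from the start), with matches to the kappaB motif (dark, drawn above the bar) and to the shorter core (light, below it) on either strand. The TNFAIP3 window holds 2 adjacent kappaB matches, and ICAM1 holds the core alone.

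TNFAIP3 encodes A20, a ubiquitin-editing enzyme that shuts off signalling to the IKK complex. It stood at 43.7 and 37.7 CPM in PC3 with miR-375, against 32.6 and 29.7 CPM in PC3 control, and at 16.0 and 14.8 CPM in LNCaP with miR-375, against 11.5 and 12.5 CPM in LNCaP control. The libraries with miR-375 were above the controls in both lines. TNFAIP3 rose by 0.39 ± 0.09 in PC3 (adjusted p = 0.000358) and by 0.36 ± 0.10 in LNCaP (0.00569), and both calls held under all 17 alternatives. The difference of the effects, PC3 minus LNCaP, was 0.02, with a 95% interval from −0.25 to 0.30.

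NFKBIZ encodes IkBζ, a nuclear member of the IkB family that works as a co-activator at a subset of inflammatory genes. It stood at 133 and 129 CPM in PC3 with miR-375, against 115 and 112 CPM in PC3 control. In LNCaP it stood at 8.84 and 8.86 CPM with miR-375, against 9.94 and 9.62 CPM in control. The miR-375 libraries were above the controls in PC3 and below them in LNCaP. NFKBIZ rose by 0.20 ± 0.05 in PC3 (adjusted p = 0.00122), and its LNCaP value of −0.14 ± 0.09 did not pass (0.230). With total-count scaling the LNCaP value was −0.022.

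BIRC3 encodes cIAP2, a ubiquitin ligase at TNF receptors that is itself induced by NF-kB. It stood at 41.7 and 39.2 CPM in PC3 with miR-375, against 38.7 and 32.1 CPM in PC3 control, and at 13.01 and 13.9 CPM in LNCaP with miR-375, against 13.7 and 15.1 CPM in LNCaP control. The groups did not overlap in PC3 and overlapped in LNCaP. Neither change passed (0.19 ± 0.09, adjusted p = 0.0738, in PC3; −0.10 ± 0.10, 0.529, in LNCaP). Without the first PC3 control, which stood near the miR-375 libraries, the PC3 value was 0.34 with adjusted p = 0.00850.

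ICAM1 encodes an adhesion molecule for leukocyte integrins and is a classical NF-kB target. It stood at 273 and 269 CPM in PC3 with miR-375, against 169 and 177 CPM in PC3 control. In LNCaP it was a trace transcript, at 0.949 and 1.33 CPM (35 and 48 counts) with miR-375, against 1.09 and 1.58 CPM (36 and 55 counts) in control. The PC3 groups lay far apart and the LNCaP groups overlapped. ICAM1 rose by 0.65 ± 0.05 in PC3 (adjusted p = 1.25e-14, held under all 17 alternatives). The LNCaP value was −0.23 ± 0.22 with a 95% interval from −0.68 to 0.21, so that at this depth a change of moderate size in either direction was not detectable there.

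**Figure D4:**
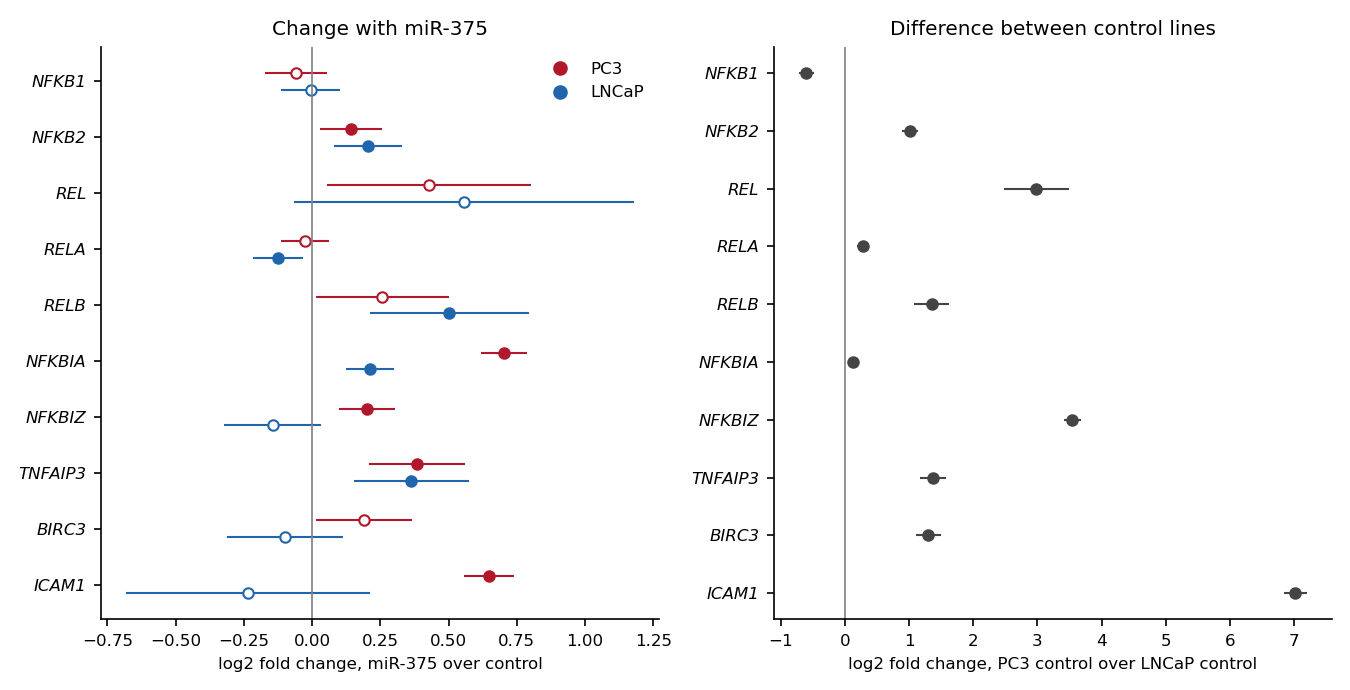
Points give log2 fold changes with 95% intervals, on the left for miR-375 over control (PC3 above LNCaP for each gene; filled where the adjusted p was under 0.05) and on the right for PC3 control over LNCaP control. NFKBIA lies at 0.70 in PC3 and 0.21 in LNCaP, and ICAM1 lies at 7.01 in the difference between control lines.

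Whether the response differed between the lines was tested by the interaction, PC3 effect minus LNCaP effect, in the same fit. It was higher in PC3 for 3 genes and lower for none (also 0 at an unadjusted p under 0.05 and by limma-voom and DESeq2), where 26.5% of all tested genes differed, 15.6% higher and 10.9% lower. The difference was 0.49 ± 0.06 for NFKBIA (adjusted p = 4.10e-08), 0.88 ± 0.23 for ICAM1 (0.00269) and 0.34 ± 0.10 for NFKBIZ (0.00902). The NFKBIA call held under all 16 alternatives that could be fitted. The ICAM1 call ended without the second LNCaP control (0.51, adjusted p = 0.244), without the first library of LNCaP with miR-375 (0.58, 0.0989) and with limma-voom (0.109), and the NFKBIZ call ended under 8 of 16 alternatives, including the removal of any LNCaP library (0.0739 to 0.150). For RELB the interval of the difference ran from −0.63 to 0.14 and for NFKB2 from −0.23 to 0.10.

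The control lines themselves differed for all 10 genes, with 9 higher in PC3 and NFKB1 lower. Between these lines 80.4% of all tested genes differed, 39.2% higher in PC3 and 41.2% lower, so a difference in either direction was common. ICAM1 averaged 173 ± 5.25 CPM in PC3 control and 1.33 ± 0.345 CPM in LNCaP control (SD, n = 2 each), a 129-fold difference. NFKBIZ was 11.6-fold higher (114 ± 2.26 CPM in PC3 control and 9.78 ± 0.226 CPM in LNCaP control) and REL 7.91-fold higher (6.65 ± 1.51 CPM in PC3 control and 0.838 ± 0.0306 CPM in LNCaP control). TNFAIP3, RELB, BIRC3 and NFKB2 were 2.60-fold, 2.55-fold, 2.46-fold and 2.02-fold higher in PC3 control. RELA was 1.21-fold and NFKBIA 1.10-fold higher, the NFKBIA call ending without the first PC3 control (adjusted p = 0.133). NFKB1 was lower, at 58.5 ± 2.67 CPM in PC3 control and 88.6 ± 1.11 CPM in LNCaP control (−0.60 ± 0.05, adjusted p = 2.31e-12). These contrasts share the control libraries with the miR-375 contrasts.

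Ordered by CPM per kb, NFKBIA was the highest of the 10 in all 4 groups, at 81.7 ± 0.445 in PC3 with miR-375, 50.2 ± 1.53 in PC3 control, 52.9 ± 1.88 in LNCaP with miR-375 and 45.7 ± 0.816 in LNCaP control. ICAM1 was the next in PC3, at 73.1 ± 0.911 with miR-375 and 46.7 ± 1.42 in control, while in LNCaP it was above REL alone. In PC3 with miR-375, NFKB2, RELA and NFKBIZ all stood at 22.2 CPM per kb and overlapped, and BIRC3 and RELB overlapped in both PC3 groups and in LNCaP control.

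The microRNA itself is shown for its seed, bases 2 to 8 in capitals, which pairs with target messages; the sequence is from RefSeq (GRCh38.p14, chr2:219001648-219001669, minus strand). Below it stand stretches of 30 bases from the 3′ untranslated regions of RELA and BIRC3 (GENCODE v29, GRCh38) that hold the 7-letter match GAACAAA, in capitals.
hsa-miR-375-3p: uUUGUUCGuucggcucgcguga
RELA: acttgaattggggGAACAAAaatcacctct
BIRC3: ttaaaaacaaacaGAACAAAaacaaaacac

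The longest 3′ untranslated region of each gene was searched on the sense strand. None of the 10 held CGAACAA, the full match to the seed, which 1.08% of 19065 genes held. The 7-letter match GAACAAA, which overlaps the full match by 6 letters, was present in 3 of the 10, against 15.0% of genes, and the RELA and BIRC3 stretches are shown. The regions searched were 1986 bases long for RELA and 2301 for BIRC3, beside a median of 1090 over all genes. The shares are not matched for length, so they do not show an excess of matches. A further gene, NFKBIZ, held the 6-letter match GAACAA alone. The RELA stretch (chr11:65655405-65655434, minus strand) lies in the 3′ untranslated region of 1 of 5 coding transcripts of the basic set, and the BIRC3 stretch (chr11:102337561-102337590, plus) in that of all 3.

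Other genes of the pathway were taken from lists by role. Over all tested genes 22.2% rose and 20.8% fell in PC3, and 13.9% rose and 18.7% fell in LNCaP. The counts in each list below are to be read beside these shares. Of 7 further genes of the IkB family and its partners, 2 rose and 1 fell in PC3, and 2 rose and 2 fell in LNCaP. NFKBIB, which encodes IkBβ, rose in PC3 to 30.9 ± 0.719 CPM with miR-375, against 17.9 ± 2.64 CPM in control (0.79 ± 0.10; SD, n = 2 each), and stood at 20.2 CPM in both LNCaP groups. NKIRAS1, a small GTPase gene whose product binds IkBβ, rose by 0.50 in PC3 and 0.52 in LNCaP. NFKBIE, the IkBε gene, fell by 0.27 in PC3. BCL3, a nuclear IkB gene, rose by 0.42 in LNCaP, where NFKBID, another, fell by 0.73.

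Of 12 genes of the IKK complex and upstream kinases, 2 rose and 4 fell in PC3, and 1 rose and 3 fell in LNCaP, with medians of −0.13 and −0.08. IKBKB, the gene of the catalytic kinase IKKβ, fell in PC3 to 22.2 ± 1.34 CPM with miR-375, against 42.1 ± 0.495 CPM in control (−0.92 ± 0.08), and stood at 31.0 ± 1.63 CPM in LNCaP with miR-375 and 33.4 ± 0.935 CPM in LNCaP control, a change that did not pass. MAP3K14, which encodes NIK, the kinase of the non-canonical pathway, fell by 0.89 in PC3. MAP3K8, the TPL2 kinase gene, rose in both lines, by 1.05 in PC3 and 0.48 in LNCaP. MAP3K3, the MEKK3 gene, fell by 0.59 and MAP3K7, the TAK1 gene, by 0.52 in LNCaP, and in PC3 they fell by 0.75 and 0.34.

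Of 22 adaptor and ubiquitin ligase genes, 5 rose and 4 fell in PC3, and 6 rose and 5 fell in LNCaP. The shares over all tested genes were 22.2% higher and 20.8% lower in PC3, and 13.9% and 18.7% in LNCaP. BCL10 fell by 0.93 in PC3 and its partner MALT1 by 0.88 in LNCaP; their proteins form a complex that activates IKK. BCL10 also fell by 0.34 in LNCaP, and MALT1 in PC3 stood at −0.05, which did not pass. IRAK4, the kinase gene of Toll-like receptor signalling, found by its Ensembl identifier, fell by 0.73 in PC3. TRAF3 rose by 0.72 in PC3 and 0.40 in LNCaP, and IRAK2 by 0.42 in PC3 and 0.74 in LNCaP. RIPK2 rose by 0.43 in LNCaP. Of 14 tested negative regulators, 4 rose and 4 fell in PC3 and 3 rose and 3 fell in LNCaP. ZC3H12A, the gene of the messenger RNA-degrading enzyme Regnase-1, rose by 0.93 in PC3 and 0.36 in LNCaP. OTULIN, a deubiquitinase gene, fell by 0.83 in PC3 and 0.64 in LNCaP. SIGIRR, an inhibitory receptor gene, fell by 0.71 in PC3, and CYLD, a deubiquitinase gene, rose by 0.31 in LNCaP and fell by 0.32 in PC3 (difference −0.64, adjusted p = 7.46e-05).

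Of 15 receptor genes, 8 rose and 4 fell in PC3, and 5 rose and 1 fell in LNCaP, with medians of 0.42 and 0.43. Several were trace transcripts in LNCaP, among them TLR1, TLR4, TLR6 and CD40, while LTBR and TNFRSF1A were not. CD40, among the 5 that rose in LNCaP, stood there at 0.437 CPM with miR-375 and 0.115 CPM in control. The near-equal medians therefore do not show a shared receptor response. CD40 rose in PC3 to 22.4 ± 0.278 CPM with miR-375, against 11.03 ± 1.32 CPM in control (1.02 ± 0.15). The Toll-like receptor genes TLR3 and TLR6 rose by 1.80 and 1.07 in PC3. In LNCaP, IL1RAP, the interleukin-1 co-receptor gene, fell by 0.95, TNFRSF11A, the RANK gene, rose by 0.43 and TNFRSF12A, the TWEAK receptor gene, rose by 0.36. In PC3 all 3 fell, IL1RAP by 0.38, TNFRSF11A by 0.39 and TNFRSF12A by 0.31. The effects of TNFRSF11A and TNFRSF12A differed between the lines, PC3 minus LNCaP, by −0.82 (adjusted p = 3.84e-05) and −0.68 (4.77e-07). Of 8 tested ligand genes, 3 rose and 0 fell in PC3, and 0 passed in LNCaP by edgeR (0 higher and 1 lower at an unadjusted p under 0.05; 1 lower by limma-voom and 0 by DESeq2). The third was TNF, named after its values were seen. It was a trace transcript in PC3, at 0.381 and 0.854 CPM with miR-375, against 0.0998 and 0.0519 CPM in control. IL1B, the interleukin-1β gene, rose in PC3 to 1101 ± 5.75 CPM with miR-375, against 802 ± 5.22 CPM in control (0.46 ± 0.05), and IL1A rose by 1.28. In LNCaP both were trace transcripts, IL1B at 0.191 CPM with miR-375 and 0.420 CPM in control, IL1A at 0.0271 and 0.0286 CPM. IL17C stood at 0 CPM in PC3. IL1RN was well above trace level in LNCaP, at 9.06 CPM with miR-375 and 10.8 CPM in control. The ligand counts in each line therefore include genes too low there to show a change.

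Of 35 tested direct target genes other than the 10, 23 rose and 4 fell in PC3, with a median of 0.92, and 10 rose and 4 fell in LNCaP, with a median of 0.09. In LNCaP 6 of them had a group with 0 counts throughout. With those set at the bound that 3 counts per library allow, the median was 0.00. Several others were trace transcripts there, among them PTGS2 (0.437 CPM with miR-375 and 0.328 CPM in control), C3 (0.398 and 0.428) and IER3 (0.684 and 0.808). BCL2L1 (114 and 76.4 CPM) and SDC4 (116 and 100 CPM) were not. The LNCaP count and median therefore do not show that genes at trace level failed to respond. C3, a complement gene, rose by 4.46 in PC3, PTGS2, the inducible cyclooxygenase gene, by 3.91 and CCL20, a chemokine gene, by 2.36. The 4 that fell in PC3 were BCL2A1, BCL2L1, GADD45B and PLAU, named after their values were seen. Of these, BCL2L1 (0.58), GADD45B (0.63) and PLAU (2.22, at 0.562 CPM with miR-375 and 0.121 CPM in control) rose in LNCaP. In LNCaP the chemokine genes CXCL8 and CXCL10 rose by 0.77 and 1.33, while CXCL1, another, fell by 2.01, at 0.357 CPM with miR-375 and 1.45 CPM in control. In PC3, CXCL8 rose by 1.27 and CXCL1 by 0.91. Without the second LNCaP control the number that rose in LNCaP was 6. SOD2, whose symbol stood on 2 gene lines, was not used. These lists were drawn up with earlier results of these data known, so their counts are not independent evidence of a direction.

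**Figure D5:**
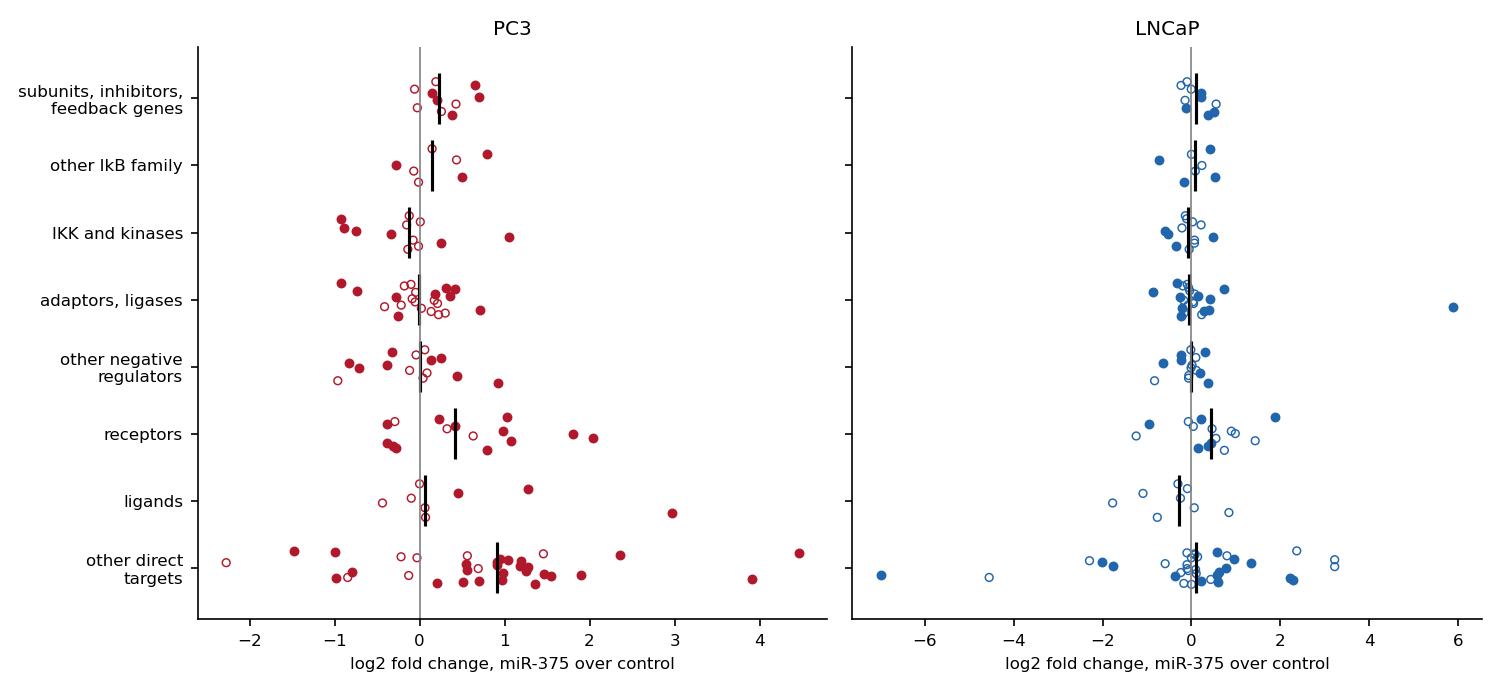
Each point is a tested gene, placed by its log2 fold change of miR-375 over control in PC3 (left) and LNCaP (right; the horizontal scales differ) and filled where the adjusted p was under 0.05, with a vertical bar at each list's median. The direct targets have a median of 0.92 in PC3 and 0.09 in LNCaP, where several of them are trace transcripts. In LNCaP the outermost points, TRAF1 and IL6, had a group with 0 counts, so their positions depend on the prior count.

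The genes whose profile over the 8 libraries was most like those of 4 of the 10 were sought among 11811 genes at 5 CPM or more, by the root mean square difference of centred log2 CPM. For NFKBIA they included ZNF664 (0.0553), ZNF134, YIPF2 and WSB1 (0.0746). For TNFAIP3 they included ZNF609 (0.0676), CTDSP2, MSANTD4 and RPS6KC1 (0.0800), and for BIRC3 they were FAM210A (0.0775), XXYLT1, WDR48, UGP2 and TGIF1 (0.0882). For ICAM1 the nearest was SPRY4 (0.128), a feedback inhibitor gene of growth factor signalling, at 0.70 in PC3 and −0.31 in LNCaP, followed by ANKRD33B, ABI3BP, DMRTA1 and TMTC1 (0.262). None of these genes is on the pathway lists used here.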

How the data were processed

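RNA was measured in 8 libraries of PC3 and LNCaP cells, grouped by their titles. The deposited values are whole-number counts per gene without scaling. The genome build hg38 and the tools featureCounts, STAR 2.7.1a, DESeq2 and fastp are named in the submitters' processing notes. Libraries kept strand by the dUTP method, per the labels' protocols, but the annotation and the strand setting of the counting are not stated, so overlapping and antisense genes are uncertain. Of counts from 1 to 20, 68.1% to 70.3% per library were even, and whether mates were counted singly is not stated, so halved counts were tried. Of 60625 lines, 3 were broken and left out (279 counts).

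Replicates were not identical (chi-square over its degrees of freedom, 3.06 to 3.37). Genes passing filterByExpr (21066) were fitted with 4 group means, TMM scaling and 4 residual degrees of freedom. The fit was made in edgeR 4.0.16 (R 4.3.3) with glmQLFit (robust) and glmQLFTest. A run on simulated counts changed few genes, in PC3 alone. It therefore does not test calls in data where 43.0% of genes changed in PC3. Adjusted p-values are Benjamini-Hochberg over all tested genes. SE is the absolute log2 fold change divided by the square root of F. Alternatives used limma 3.58.1 (voom), DESeq2 1.42.0, other scalings and filters, halved counts, single lines and 1 library left out. A count of 0 was given a floor of 3 counts, which, like any depth limit here, covers counting error only. Per-kb levels use GENCODE v29 exon unions.

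The 10 genes and all lists were chosen with earlier results of these data known. Beyond the 10, genes were named by rule: in each list, up to 3 with adjusted p under 0.05 and the largest change in each line at 1 CPM or more. The core motif was added to the kappaB search later. Some genes most like a member, and a sequence, are not reported here.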

Additional observations from a re-analysis of the deposited data

Results flagged for a closer look

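For 3 of the 10 genes the effect of miR-375 differed between the lines by the interaction test in edgeR, PC3 minus LNCaP, where 26.5% of all tested genes differed. The difference was 0.49 for NFKBIA, 0.88 for ICAM1 and 0.34 for NFKBIZ on the log2 scale. The NFKBIA call held under 16 of 16 alternatives, while the ICAM1 call ended under 3 and the NFKBIZ call under 8 of them. NFKBIA was higher with miR-375 in 2 of 2 libraries of each line. ICAM1 was higher in 2 of 2 PC3 libraries and overlapped the controls in LNCaP, where it stood near 1 CPM. With TMM scaling NFKBIZ was above both controls in 2 of 2 PC3 libraries and below both in 2 of 2 LNCaP libraries. Its LNCaP change did not pass in edgeR (−0.14, adjusted p = 0.230), and with total-count scaling it was −0.022.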

How the results depend on the processing

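NFKBIA and TNFAIP3 in both lines, and ICAM1 and NFKBIZ in PC3, kept their direction and call under all 17 alternatives. With total-count scaling and with limma-voom, 8 of the 10 genes rose in PC3, REL, RELB and BIRC3 joining the 5. The 1 lower call in LNCaP (RELA) became 0 with RLE size factors, total-count scaling, no filter on low counts, a filter of 1 CPM in 2 libraries, halved counts and DESeq2, and 0 when any library was left out; the cause was not tested. The number higher in LNCaP ran from 2 to 4 with 1 library left out, and the number with a larger effect in PC3 from 1 to 4 (BIRC3 being added without the first PC3 control, adjusted p = 0.0234), and was 1 with limma-voom.

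Values near 0 changed sign. NFKB1 in LNCaP was 0.034 (RLE), 0.12 (total counts), 0.061 (no filter), 0.058 (1 CPM filter), 0.048 (halved counts) and 0.034 (DESeq2), and 8.59e-05 to 0.058 with 1 library left out. The TNFAIP3 difference between lines was −0.031, −0.023, −0.073, −0.053, −0.053 and −0.032 in the same order, and −0.12 to 0.12 with 1 library left out. With total counts NFKB1 and RELA in PC3 were 0.017 and 0.050, and BIRC3 in LNCaP 0.022. Leaving out 1 library gave −0.12 to 0.025 for BIRC3 and −0.45 to 0.11 for ICAM1 in LNCaP, and −0.19 to 0.0047 for NFKB2 and −0.36 to 0.12 for REL in the difference.

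Libraries with the same number in the labels did not deviate together (correlations from −0.0161 to 0.0670 over 11812 genes), so the numbers were not taken as pairs. A replicate block left 5 higher and 0 lower in PC3, 4 and 1 in LNCaP, 3 and 0 in the difference and 9 and 1 between lines, with NFKBIA at 0.70 in PC3.

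Where a library is left out its partner is assumed to vary like the other groups. In PC3, REL was called under 5 and BIRC3 under 3 of 17 alternatives, so neither call is settled with 2 libraries a group. ICAM1 in LNCaP rests on 35 to 55 counts per library.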
